A study of Mus musculus with 4 samples.

Results

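Transferred regulatory T (Treg) cells that lacked CD226 were compared with wild-type Treg cells in recipients in which TIGIT was present throughout. The comparison rests on 11245 cells of the 36140 that passed the cell filter in the 4 libraries of the study. Of these, 6030 came from the library labelled CD226ko_TIGITwt and 5215 from the library labelled CD226wt_TIGITwt. The recipients were irradiated BALB/c mice (900 cGy) given T cell-depleted C57BL/6 bone marrow and C57BL/6 Treg cells. T cells derived from the marrow were wild type and carried both CD45.1 and CD45.2. The Treg cells were sorted from donor spleen as CD4+, Foxp3-GFP+ and CD25hi, from CD226-/- TIGIT+/+ or CD226+/+ TIGIT+/+ donors. Wild-type C57BL/6 conventional CD4+ and CD8+ T cells followed 2 days later and started acute graft-versus-host disease in both groups. Donor T cells were sorted from recipient spleens 8 days after induction and sequenced as 1 library per genotype, each a pool of 3, with both libraries on lane 3. The other libraries, used here only for a second CD226 contrast, came from recipients of TIGIT-/- Treg cells with CD226 (CD226wt_TIGITko) or without it (CD226ko_TIGITko), on lane 4. With 1 library per genotype there is no replicate spread and no test between genotypes. The intervals in brackets are exact 95% intervals that hold counting error only.

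CD226 is a costimulatory receptor of T cells and NK cells that binds the ligands CD155 and CD112. TIGIT binds the same ligands and carries inhibitory motifs in its tail, so the 2 receptors work against each other on the cells that carry both. Treg cells, defined by the transcription factor Foxp3, restrain the donor T cells that attack recipient tissue in graft-versus-host disease, and in that setting they can be lost, divide or change their gene programme.

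The conventional cells were wild type in both libraries, so they served as an inner reference: a gene that differed in them as well did not differ in the CD226-null cells alone. Cells were sorted into classes by protein, read from sequenced antibody tags for 2 CD45 alleles, because Treg donors carried only CD45.2 and conventional donors only CD45.1. The measure r was log2 of (CD45.1 + 1)/(CD45.2 + 1) tag counts. Cells with r below -0.6 were called Treg-origin and cells with r above 2.2 conventional. Conventional cells with more Cd4 UMIs than the sum of Cd8a and Cd8b1 formed the CD4 class, and those with fewer the CD8 class. Treg-origin cells numbered 367 in the wild-type library and 332 in the CD226-null library, which is 4.80% [4.33, 5.30] and 3.67% [3.29, 4.08] of the cells that passed. Conventional CD4 cells numbered 2750 and 3098, and conventional CD8 cells 2098 and 2600. Within 0.25 of the lower limit, 39 wild-type-library cells lay inside with median counts of 75 CD45.1 and 124 CD45.2, and 23 lay outside with 84 and 113.

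**Figure D1:**
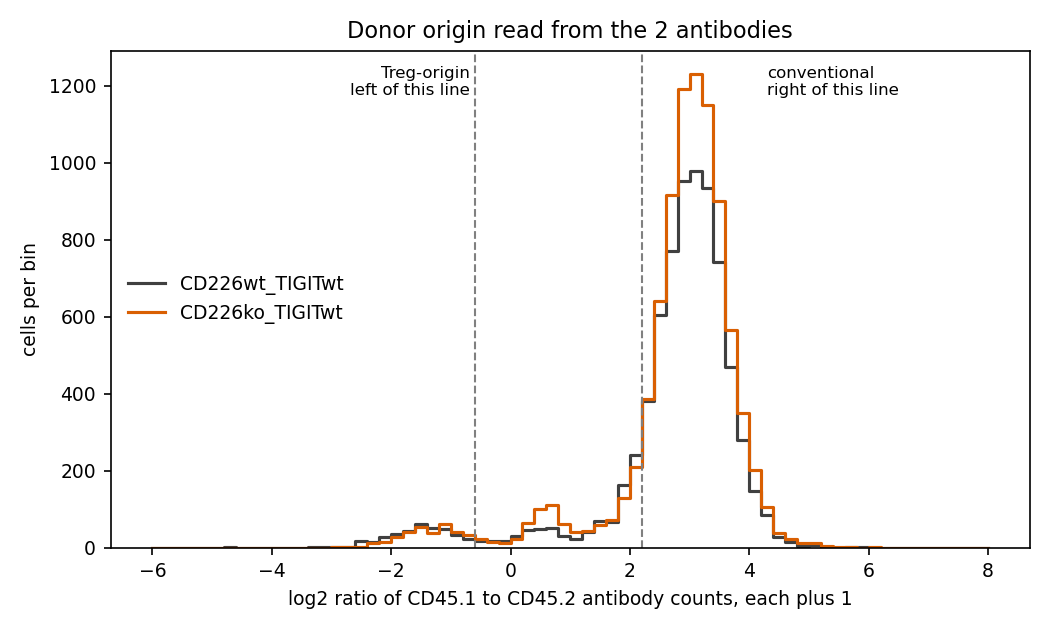
Cells per bin (vertical axis) by r, log2 of (CD45.1 + 1)/(CD45.2 + 1) antibody tag counts (horizontal axis), in the wild-type (grey) and CD226-null (orange) libraries. The dashed lines stand at -0.6 and 2.2, with 367 and 332 Treg-origin cells to the left of the first line.

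Treg-origin cells carried the transcripts their label calls for, and few Cd226 transcripts when CD226 was deleted. Counts of unique molecules (UMIs) were summed over the cells of a class and given per 1000000 UMIs of that class (CPM). Cd226 stood at 31.2 CPM in wild-type and 4.01 CPM in CD226-null Treg-origin cells, a ratio of 0.128 [0.0498, 0.278], against 67.3 and 72.5 CPM in the wild-type CD4 cells and 92.3 and 102 CPM in the wild-type CD8 cells of the same libraries. The 3′ counts do not show which part of the gene was deleted. Foxp3 was at 54.6 and 64.1 CPM in Treg-origin cells (ratio 1.17 [0.901, 1.52]) and at 2.26 and 1.52 CPM in conventional CD4 cells. A Foxp3 UMI was seen in 24.5% and 26.5% of Treg-origin cells, at median depths of 5372 and 4783.5 UMIs, and in 1.53% and 0.839% of conventional CD4 cells at 9013 and 8055.5 UMIs. After thinning each cell to 2000 UMIs, which left out 14 and 17 shallower Treg-origin cells, the Foxp3 shares were 10.8% and 10.8%. Tigit, present by genotype in both libraries, was at 9.11 and 5.15 CPM (ratio 0.566 [0.228, 1.29]). The 8 Treg markers (Foxp3, Ikzf2, Il2ra, Ctla4, Tnfrsf18, Ikzf4, Lrrc32 and Capg) summed to 2169 and 2189 CPM in Treg-origin cells, to between 602 and 645 in conventional CD4 cells and to between 388 and 454 in conventional CD8 cells. Among Treg-origin cells, 10 and 14 held more Cd8 than Cd4 UMIs.

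Depth set what could be seen in each class. Treg-origin sums held 2305761 UMIs (wild type) and 1747477 UMIs (CD226 null), the conventional classes between 28912612 and 30389697 UMIs each. A gene counted as measured in a class with a mean of at least 20 CPM over both libraries, which is 46.1 and 34.9 UMIs in Treg-origin sums. A gene near this floor can therefore pass through the library in which it was higher. Mitochondrial genes took 4.23% and 3.94% of Treg-origin UMIs, and 29 cell barcodes occurred in both libraries, against 23 to 36 over all pairs of the 4 libraries. Markers of other cells differed between the Treg-origin sums through single cells. The 10 neutrophil markers summed to 1953 CPM in the wild-type library, with 4491 of 4502 UMIs in 1 cell, and to 5.72 CPM in the CD226-null library. The 14 B and plasma cell markers summed to 512 and 2589 CPM (3591 of 4524 UMIs in 1 cell) and the 8 erythroid markers to 48.6 and 1004 CPM (1698 of 1755 UMIs in 1 cell). Genes with over 50% of the UMIs of 1 library and class in 5 cells are called concentrated and were not ranked.

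Few genes differed by 25% or more in the same direction in all 3 classes, though 2203 of the 4605 genes measured in each class had the same sign in all 3 (939 higher and 1264 lower). Of the 4605 genes, 9 (0.195%) were at least 25% higher and 3 (0.0651%) lower by that factor or more in Treg-origin, CD4 and CD8 cells alike. The higher genes were Tsc22d3, Zfp36l2, Il7r, Ddit4, Rsrp1, Txnip, S100a4, the predicted gene Gm12840 and Klrd1, and the lower ones Hist1h2ap, Gstp1 and Ddx3x. In Treg-origin cells alone, 425 of 5137 measured genes (8.27%) were at least 25% higher and 462 (8.99%) lower by that factor. In CD4 cells these counts were 30 (0.589%) and 26 (0.511%) of 5090, and in CD8 cells 65 (1.29%) and 89 (1.76%) of 5047. The shallower Treg-origin sums scatter more through counting alone, so the counts of the classes cannot be set against each other. All 3 classes came from the same pair of libraries: a change in recipients that received CD226-null Treg cells and a difference between the libraries as such cannot be told apart.

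Tsc22d3 encodes GILZ, a leucine zipper protein induced by glucocorticoids that restrains inflammatory signalling. It stood at 55.1 CPM [45.9, 65.5] in wild-type and 133 CPM [116, 151] in CD226-null Treg-origin cells, at 26.04 and 43.8 CPM in CD4 cells and at 22.04 and 37.4 CPM in CD8 cells. The ratios were 2.41 [1.93, 3.02], 1.68 [1.54, 1.84] and 1.70 [1.54, 1.87], so that the interval of Treg-origin cells lay above both others. Zfp36l2, an RNA-binding protein that speeds the decay of AU-rich messages and favours quiescence, was at 49.0 and 105 CPM in Treg-origin cells (ratio 2.15 [1.69, 2.74]). Its ratios were 1.59 [1.48, 1.70] in CD4 cells (47.9 and 76.1 CPM) and 1.56 [1.46, 1.66] in CD8 cells (55.2 and 86.0 CPM).

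Il7r encodes the alpha chain of the IL-7 receptor, through which resting and memory T cells receive survival signals. Its level was 174 CPM in wild-type and 336 CPM in CD226-null Treg-origin cells (ratio 1.94 [1.70, 2.204]), 56.6 and 90.2 CPM in CD4 cells (1.59 [1.499, 1.70]) and 29.2 and 45.4 CPM in CD8 cells (1.56 [1.43, 1.70]). Il7r was thus higher beside CD226 loss in each class, on levels that were themselves highest in Treg-origin cells. Ddit4, an inhibitor of mTORC1 induced by stress and glucocorticoids, was at 74.6 and 122 CPM in Treg-origin cells (1.64 [1.34, 2.02]), with ratios of 1.40 [1.31, 1.499] and 1.43 [1.31, 1.56] in CD4 and CD8 cells. Txnip, a thioredoxin-binding protein that limits glucose uptake, was at 129 and 182 CPM in Treg-origin cells (1.41 [1.20, 1.66]). Its ratios were 1.39 [1.31, 1.48] and 1.29 [1.21, 1.38] in CD4 and CD8 cells, close to that of Treg-origin cells.

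Rsrp1, an arginine- and serine-rich nuclear protein, stood at 258 and 376 CPM in Treg-origin cells (1.46 [1.30, 1.63]), with 1.30 [1.253, 1.34] and 1.32 [1.28, 1.37] in CD4 and CD8 cells. S100a4, a calcium-binding protein of motile cells, was at 1034 and 1458 CPM in Treg-origin cells (1.41 [1.33, 1.49]), at 1590 and 2041 CPM in CD4 cells (1.28 [1.27, 1.30]) and at 1001 and 1571 CPM in CD8 cells (1.57 [1.55, 1.59]). S100a4 was the gene of this set whose ratio was higher in CD8 than in Treg-origin cells with intervals apart. Gm12840 had ratios of 1.41, 1.36 and 1.49 in Treg-origin, CD4 and CD8 cells. Klrd1 encodes CD94, the partner chain of NKG2 receptors. Its ratios were 2.83 [1.94, 4.18], 1.253 [1.21, 1.30] and 1.42 [1.37, 1.46], but 59.5% of its 42 wild-type Treg-origin UMIs came from 5 cells.

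Hist1h2ap, a replication-dependent H2A histone gene, was the lowest of the shared genes. It stood at 779 and 436 CPM in Treg-origin cells (ratio 0.559 [0.513, 0.609]), 1100 and 729 CPM in CD4 cells (0.662 [0.651, 0.674]) and 1231 and 844 CPM in CD8 cells (0.685 [0.674, 0.696]). Histone genes of this family are near-identical, so counts could be split among them. Gstp1, a glutathione transferase, was at 160 and 104 CPM in Treg-origin cells (0.651 [0.542, 0.779]), with 0.683 [0.644, 0.726] and 0.763 [0.717, 0.812] in CD4 and CD8 cells. Ddx3x, an X-linked RNA helicase, was at 54.2 and 40.6 CPM in Treg-origin cells, with a ratio of 0.750 [0.552, 1.01] that does not leave out 1, and with 0.781 and 0.771 in CD4 and CD8 cells. Of the 12 shared genes, 10 differed most in Treg-origin cells. In 4 of them (Tsc22d3, Il7r, Klrd1 and Hist1h2ap) the Treg-origin interval lay apart from both conventional intervals. This order depended on the antibody limits. With r below -1.5 or above 3, the log2 ratio of Il7r was 0.72 in Treg-origin against 0.75 in CD4 cells. Txnip was then at 0.20 against 0.53 and Ddx3x at -0.23 against -0.37. Tsc22d3, Zfp36l2, Ddit4, Rsrp1 and Gstp1 still differed most in Treg-origin cells, as did Hist1h2ap by little (-0.62 against -0.57 in CD4 cells). Just outside the limit were Ypel3 (ratios 1.29 in Treg-origin and 1.42 in CD8 cells, at the limit in CD4 cells) and Pno1 (0.792, 0.804 and 0.752).

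**Figure D2:**
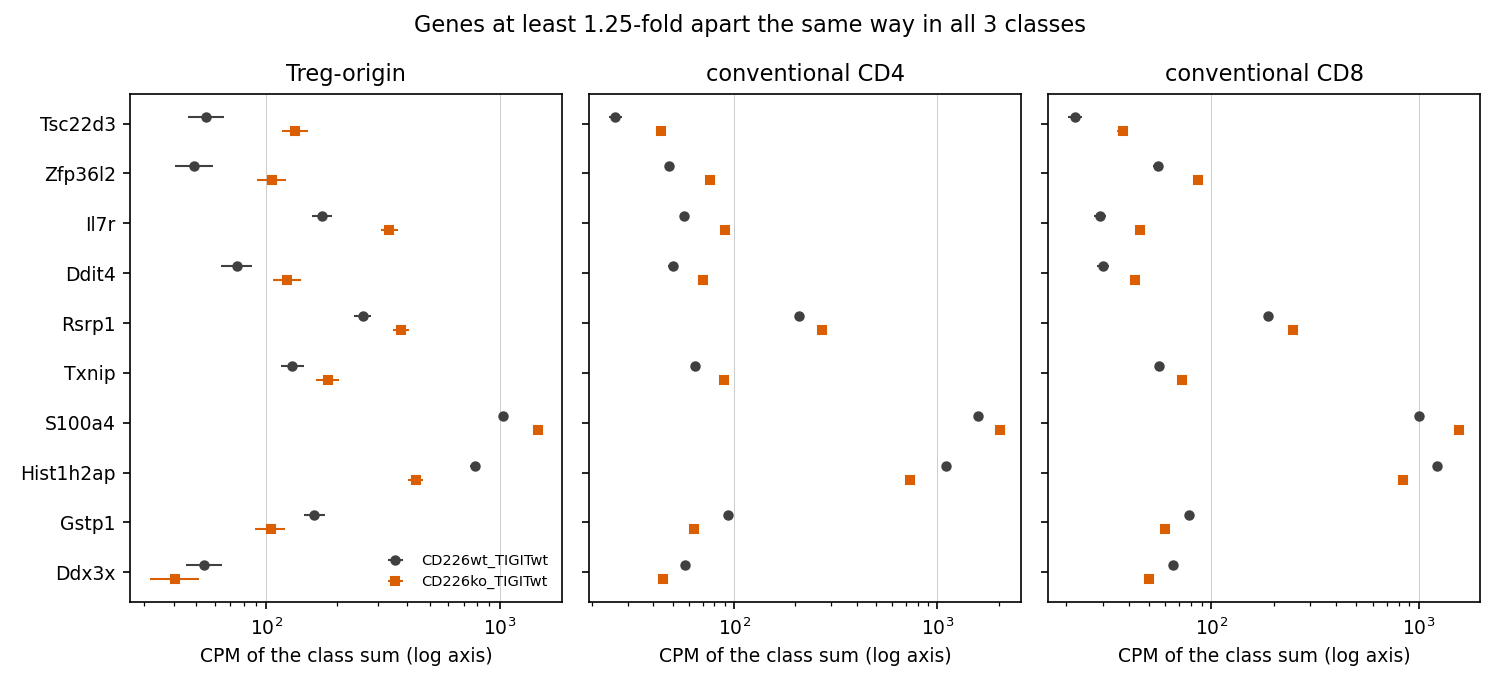
Level of the 10 ranked shared genes in CPM of the class sum (horizontal, log axis) in the 3 classes, for the wild-type (grey circles) and CD226-null (orange squares) libraries, with 95% counting intervals. Tsc22d3 stands at 55.1 and 133 CPM in Treg-origin cells, and all 7 higher genes lie to the right and all 3 lower genes to the left of their wild-type value in each class.

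The same direction was present in cells left out of the 3 classes. In conventional cells with equal or no Cd4 and Cd8 counts, the ratios were 1.61 for Tsc22d3, 1.59 for Zfp36l2, 1.51 for Il7r and 0.634 for Hist1h2ap. In cells between the 2 antibody limits, which can hold bone-marrow progeny and doublets, they were 1.68, 1.68, 1.42 and 0.773. Mitosis transcripts were lower in CD226-null Treg-origin cells (median log2 ratio -0.29), and cells with under 0.2% of UMIs in mitosis and replication genes made up 59.1% of wild-type and 67.2% of CD226-null Treg-origin cells, 24.0% and 28.8% of CD4 cells and 6.86% and 10.4% of CD8 cells. Among those cells, the log2 ratio in Treg-origin cells was 1.10 for Tsc22d3, against 1.254 over all of them. It was 1.49 against 1.09 for Zfp36l2, 0.89 against 0.95 for Il7r and 0.06 against 0.49 for S100a4. Hist1h2ap there was at -1.19 against -0.84 in Treg-origin cells, but at -0.19 against -0.59 in CD4 and -0.30 against -0.54 in CD8 cells. Gstp1 was at -0.16 against -0.38 and Ddx3x at -0.14 against -0.37 in CD8 cells, and Ddx3x at -0.20 against -0.41 in Treg-origin cells. The part of cell division in the shared differences was not tested.

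The promoters of 3 higher genes that act in quiescence, nutrient sensing and survival are shown as examples from the genes higher in all 3 classes. The windows are the 250 bases upstream of the RefSeq start on GRCm38.p6, 5′ to 3′ on the gene's strand. Txnip lies at chr3:96557707-96557956 (plus strand), Ddit4 at chr10:59951771-59952020 (minus strand) and Il7r at chr15:9529877-9530126 (minus strand). Capitals mark a match, on the opposite strand, to the FOXO motif TGTTTAC in Txnip (-121 to -115 from the start) and to the KLF/SP motif CCACGCCC in Ddit4 (-117 to -110).
Txnip: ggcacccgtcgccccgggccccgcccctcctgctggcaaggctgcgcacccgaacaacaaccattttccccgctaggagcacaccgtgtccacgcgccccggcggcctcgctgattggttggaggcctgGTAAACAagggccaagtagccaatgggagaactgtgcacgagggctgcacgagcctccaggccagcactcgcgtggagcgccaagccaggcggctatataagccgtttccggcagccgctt
Ddit4: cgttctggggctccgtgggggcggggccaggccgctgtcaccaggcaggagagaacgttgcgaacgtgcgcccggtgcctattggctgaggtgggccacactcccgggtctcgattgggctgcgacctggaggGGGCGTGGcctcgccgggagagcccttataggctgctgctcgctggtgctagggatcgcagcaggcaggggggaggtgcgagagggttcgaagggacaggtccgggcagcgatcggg
Il7r: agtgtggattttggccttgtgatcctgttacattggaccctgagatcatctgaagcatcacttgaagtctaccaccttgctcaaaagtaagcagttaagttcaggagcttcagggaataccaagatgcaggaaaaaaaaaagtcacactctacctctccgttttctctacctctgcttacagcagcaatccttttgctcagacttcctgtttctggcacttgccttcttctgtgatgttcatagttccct
Of the 12 shared genes 8 had a promoter in the table. On both strands, TGTTTAC was found in 2 of them (Txnip and Rsrp1) and in 3.17% of all 32851 promoters of this length, or 2.78% of the 4468 measured genes with a promoter. CCACGCCC was found in 1 (Ddit4) against 4.79% of all promoters and 11.1% of measured genes, and the E-box CACGTG in 0 against 6.02% and 10.6%. The glucocorticoid receptor half-site TGTTCT was found in 1 (a listed start of Tsc22d3) against 16.1% and 12.3%. A window taken at another of the 3 listed starts of Tsc22d3 held none of these motifs and is not printed. A match describes the letters only.

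The list of resting and memory T cell genes was higher in all 3 classes: 14 of 16 measured members in Treg-origin cells, 14 of 16 in CD4 cells and 11 of 14 in CD8 cells, where the median was -0.0008 in cells low in proliferation genes. Its median log2 ratios were 0.35, 0.19 and 0.14, beside -0.01, -0.02 and -0.01 for all measured genes, of which 47.4%, 41.7% and 46.7% were higher. Pik3ip1, an inhibitor of PI3 kinase, stood at 15.6 and 25.7 CPM in Treg-origin cells, a ratio of 1.65 [1.04, 2.63], with 1.58 and 1.46 in CD4 and CD8 cells. Klf2, which drives the exit of T cells from lymphoid organs, was at 371 and 545 CPM (1.47 [1.34, 1.61]) and had ratios of 1.08 and 1.11 in the conventional classes, below the 25% limit. Satb1, a chromatin organiser, was the lowest measured member in Treg-origin cells, at a ratio of 0.850. A list of glucocorticoid-induced genes, added after the values had been seen, includes Tsc22d3, Il7r, Ddit4 and Txnip. Without these 4, 3 of 5, 2 of 5 and 3 of 6 measured members were higher in Treg-origin, CD4 and CD8 cells, with medians of 0.0011, -0.0173 and -0.006. Fkbp5 had ratios of 1.18, 1.07 and 0.991 and Sgk1 0.956, 0.981 and 1.09 in Treg-origin, CD4 and CD8 cells.

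Of the cell cycle lists, mitosis genes had medians of different sign among the classes, and replication and histone genes had medians below 0 in all 3. The 22 measured mitosis genes were all lower in CD226-null Treg-origin cells, with a median log2 ratio of -0.29, whereas 3 of 24 were higher in CD4 cells (median -0.05) and 20 of 24 higher in CD8 cells (median 0.06). Cdc20, an activator of the anaphase-promoting complex, was at 98.5 and 65.2 CPM in Treg-origin cells, a ratio of 0.663, with 0.946 and 0.987 in CD4 and CD8 cells. DNA replication genes had 3 of 22, 1 of 23 and 0 of 23 members higher and medians of -0.21, -0.09 and -0.17. With stricter antibody limits (r below -1.5 or above 3) the Treg-origin median of this list was 0.04. Pcna, the sliding clamp of the replication fork, had a Treg-origin ratio of 0.741. Replication-dependent histones had 0 of 11, 0 of 12 and 2 of 12 members higher and medians of -0.32, -0.20 and -0.13. Beside Hist1h2ap, Hist1h2ab stood at 79.8 and 44.6 CPM in Treg-origin cells (0.559 [0.424, 0.733]) and had ratios of 0.846 and 0.918 in the conventional classes. A lower share of dividing cells and fewer transcripts per dividing cell cannot be told apart in class sums.

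Several growth and metabolic lists were lower by small amounts, but not all of them. Glycolysis genes had 0 of 13, 2 of 14 and 0 of 14 members higher and medians of -0.17, -0.13 and -0.17. Tpi1, triose phosphate isomerase, had a ratio of 0.720 in Treg-origin cells, and Hk1, the first enzyme of the pathway, 0.706. Ribosome biogenesis genes had medians of -0.11, -0.14 and -0.25, with 6 of 22, 3 of 22 and 0 of 22 higher, so this list differed most in CD8 cells. Its members include the nucleolar proteins Ncl (ratios 0.818, 0.910 and 0.794) and Npm1 (0.873, 0.953 and 0.793). Sterol synthesis genes had a median of -0.19 in Treg-origin cells, 2 of 11 higher, and of -0.04 and -0.0047 in the conventional classes. Transcripts of the mitochondrial genome had 1 of 12 higher and a median of -0.17 in Treg-origin cells, against -0.01 and -0.02. Respiratory chain genes encoded in the nucleus were not lower, with 21 of 30, 18 of 30 and 19 of 30 higher and medians of 0.035, 0.013 and 0.044. Amino acid transport and ATF4 target genes had 8 of 14, 1 of 15 and 1 of 16 higher and medians of 0.06, -0.08 and -0.13.

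Interferon-stimulated genes were modestly higher, with 22 of 29, 16 of 20 and 16 of 20 members higher and medians of 0.11, 0.07 and 0.05. Ifit3, an antiviral protein, had ratios of 2.70 [1.84, 4.03], 1.53 and 1.35, but 53.6% of its CD226-null Treg-origin UMIs lay in 5 cells. Ifi203, a DNA sensor of the PYHIN family, was at 222 and 299.9 CPM in Treg-origin cells (1.35). Chemokine and homing receptors had 13 of 16, 9 of 13 and 12 of 14 members higher and medians of 0.20, 0.03 and 0.15. Ccr2, which guides cells to inflamed tissue, was at 228 and 333 CPM in Treg-origin cells (1.46 [1.30, 1.65]) and had ratios of 0.931 and 1.17 in CD4 and CD8 cells. Cytotoxic granule genes stood at medians of -0.14, 0.14 and 0.11, but the Treg-origin median was 0.10 with stricter antibody limits, 0.27 in cells with more Cd4 and 0.0674 by mean per-cell CPM, and the CD4 median -0.0456 at a floor of 50 CPM. Gzmb, granzyme B, was lower in all 3 classes (0.793, 0.740 and 0.844), and Gzmk, granzyme K, was at 24.3 and 80.1 CPM in Treg-origin cells with 57.1% of the wild-type UMIs in 5 cells. Gzmk had ratios of 1.23 and 0.814 in CD4 and CD8 cells, and of 0.586 [0.444, 0.769] in Treg-origin cells with TIGIT absent.

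**Figure D3:**
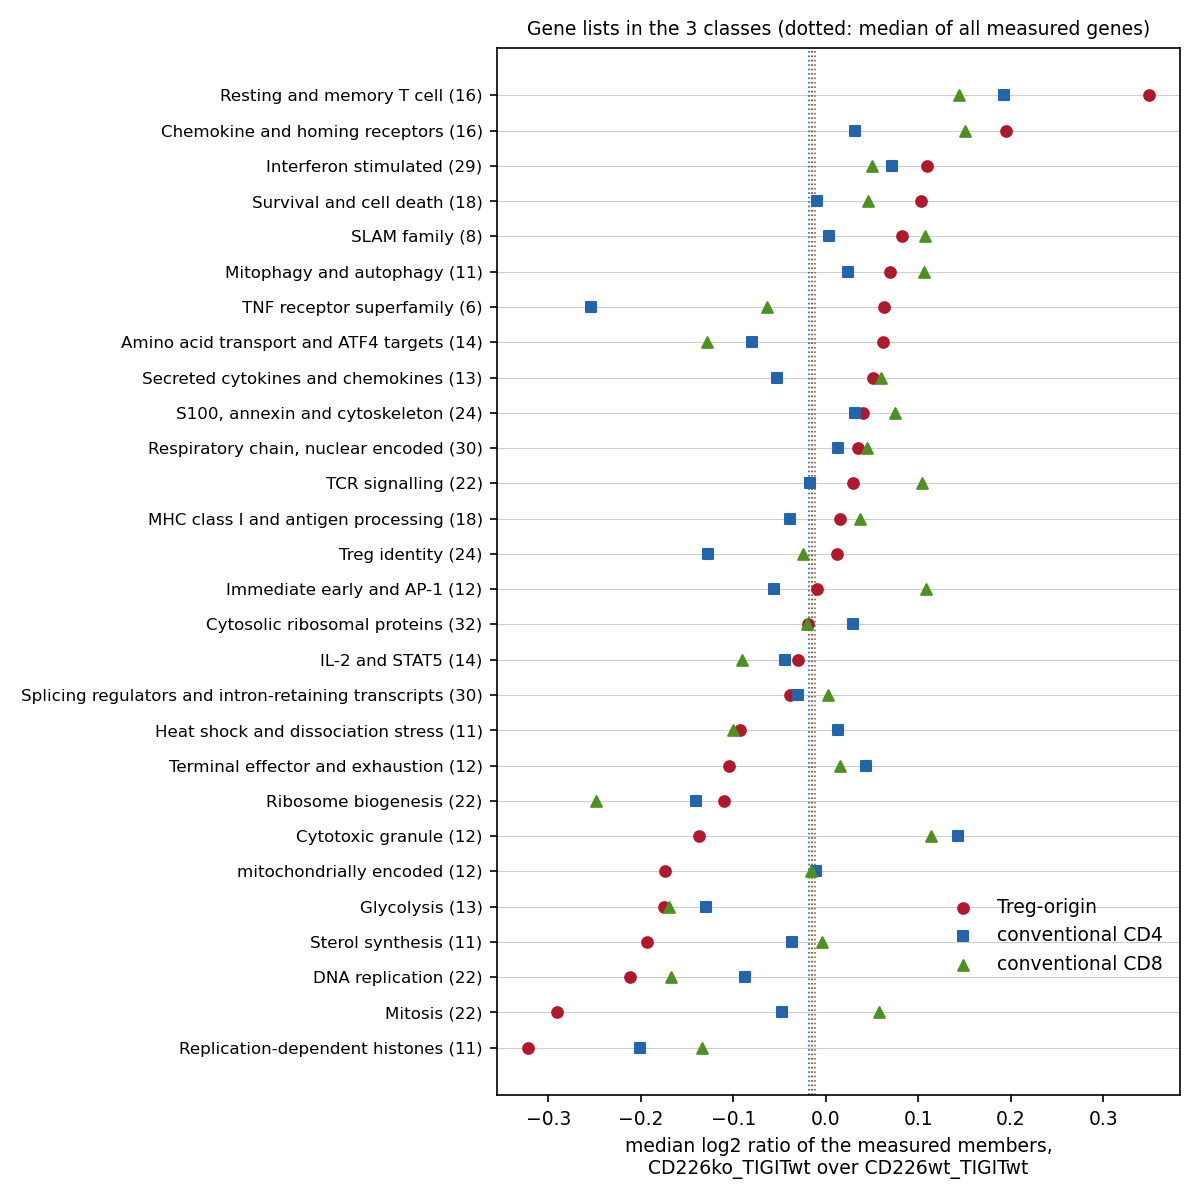
Median log2 ratio, CD226ko_TIGITwt over CD226wt_TIGITwt (horizontal axis), of the measured members of each gene list with at least 5 members measured in Treg-origin cells (vertical axis, that number in brackets), for Treg-origin (red circles), conventional CD4 (blue squares) and conventional CD8 cells (green triangles). Resting and memory genes lie at 0.35, 0.19 and 0.14, and mitosis genes lie at -0.29 in Treg-origin cells against -0.05 and 0.06.

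Of 24 measured Treg identity genes 12 were higher and 12 lower in CD226-null Treg-origin cells, with a median log2 ratio of 0.01. At least 25% apart, 6 were higher and 1 lower, beside 8.27% and 8.99% of all 5137 genes measured in these cells. At least 1.5-fold apart, 4 were higher and 0 lower, beside 1.64% and 1.54%. With TIGIT absent the median of this list was -0.14, with 8 of 24 higher. Klrg1 there had a ratio of 0.741 [0.596, 0.918] and Il10 a log2 ratio of -0.45. Klrg1, a receptor of short-lived effector Treg cells, was at 56.4 and 103 CPM (1.83 [1.45, 2.31]), and had ratios of 1.13 in CD4 and 0.478 [0.426, 0.534] in CD8 cells. Il10, the suppressive cytokine, was at 36.0 and 58.9 CPM (1.64 [1.21, 2.21]), with 43.4% and 43.7% of the UMIs in 5 cells. Ebi3, a subunit of IL-35, was the lowest member, at 36.4 and 28.0 CPM. Rbpj, the nuclear mediator of Notch signalling, stood at 58.1 and 31.5 CPM in Treg-origin cells (0.542 [0.388, 0.747]), with 0.605 and 0.841 in CD4 and CD8 cells. Cd69, an early activation marker, was at 81.5 and 124 CPM (1.52 [1.24, 1.85]), and Dusp2, a phosphatase of MAP kinases, at 133 and 200.3 CPM (1.504 [1.29, 1.76]). Both had ratios between 1.18 and 1.24 in the conventional classes.

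Genes that differed in Treg-origin cells alone rested on low counts. The rule asked for at least 1.5-fold with an interval that leaves out 1 in Treg-origin cells and for a difference under 15% either way in both conventional classes. It was met by 24 higher (0.521%) and 31 lower (0.673%) of the 4605 genes. For comparison, 84 genes (1.64%) were at least 1.5-fold higher and 79 (1.54%) lower in Treg-origin cells among all 5137 measured there. The 24 higher genes had a median of 61 wild-type and 74 CD226-null UMIs, and the 31 lower genes 79 and 37. Of the 24, none met the rule under all 12 other settings tried, and of the 31, none did. Stip1, a cochaperone, met it under 11, and Stat3 and Vamp7 under 10 each. Of the shared genes, 1 of the 9 higher (Zfp36l2) and 0 of the 3 lower met the shared rule under all 12 settings. Klrd1 met that rule under 8 and Ddx3x under 7, the fewest in each direction.

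Ranbp9, the first of the ranked higher genes and a scaffold of the CTLH ubiquitin ligase, was at 26.9 and 46.9 CPM in Treg-origin cells (1.75 [1.24, 2.47]), against 36.8 and 37.7 CPM in CD4 and 36.4 and 36.9 CPM in CD8 cells. Rfk, riboflavin kinase, was at 21.3 and 37.2 CPM (1.75 [1.19, 2.59]). Vamp7, a vesicle fusion protein, was at 26.5 and 44.1 CPM (1.67 [1.18, 2.37]), and Usf1, an E-box transcription factor, at 24.3 and 40.1 CPM (1.65 [1.14, 2.39]). In both conventional classes each of these 4 genes lay within that 15% of equality. Tomm6, Trpc4ap, Ak3, Mta1, Brd9 and Surf2 completed the ranking, with Treg-origin ratios between 1.62 and 1.72. Of the unranked members, named here after their values were seen, Stat3 had a Treg-origin log2 ratio of 0.61, the mTORC2 subunit gene Rictor 0.67 and the nuclear receptor gene Rora 0.63.

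Syce2, the first of the ranked lower genes and a protein of the synaptonemal complex, was at 34.3 and 17.2 CPM in Treg-origin cells (0.501 [0.318, 0.772]), against 34.9 and 33.7 CPM in CD4 and 44.1 and 39.0 CPM in CD8 cells. Hirip3, which binds the histone chaperone HIRA, was at 41.6 and 21.2 CPM (0.509 [0.338, 0.750]). Tubgcp2, a subunit of the gamma-tubulin ring complex, was at 31.7 and 16.02 CPM (0.506 [0.315, 0.792]), and Cdk7, the kinase of TFIIH, at 26.9 and 14.3 CPM (0.532 [0.320, 0.859]). Slc35a4, Cyb5r3, Ppm1h, Rfwd3, Prpf39 and Uap1 had ratios between 0.524 and 0.590. Of the unranked members, named after their values were seen, the maintenance methyltransferase gene Dnmt1 had a log2 ratio of -0.62 on 240 and 118 UMIs, the condensin gene Ncaph -0.73 and Irf8 -0.67. Mitosis genes were also lower in these cells (median -0.29, 22 of 22 lower), and their part in this set was not tested as a whole. Among cells with under 0.2% of UMIs in mitosis and replication genes, Hirip3 had a log2 ratio of 1.27 in place of -0.94.

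Opposite directions in Treg-origin and conventional cells were rare. The rule asked for at least 25% in Treg-origin cells, with an interval that leaves out 1, and at least 15% the other way in both conventional classes. Of 4605 genes 0 (0.0%) met it with a higher level in Treg-origin cells and 2 (0.0434%), Ccl3 and Ccl4, with a lower one. Both encode inflammatory chemokines. Ccl4 was at 261 and 79.5 CPM in Treg-origin cells (0.305 [0.252, 0.367]), at 170 and 274 CPM in CD4 cells (1.62 [1.56, 1.68]) and at 153 and 179 CPM in CD8 cells (1.17 [1.12, 1.21]). Ccl3 was at 99.8 and 44.6 CPM (0.448 [0.342, 0.581]), with ratios of 1.66 and 1.36 in CD4 and CD8 cells. The CD8 direction was not stable: with stricter antibody limits the CD8 log2 ratio was -0.37 for Ccl4 and 0.06 for Ccl3, and in cells low in proliferation genes -0.42 and 0.05, so that neither gene met the rule. Both genes were concentrated: 5 cells held between 72.2% and 77.6% of their Treg-origin UMIs in each library. Ccl5, another chemokine, was higher in Treg-origin cells, at 758 and 1654 CPM (2.18 [2.06, 2.32]), with 33.7% and 28.9% of its UMIs in 5 cells, and had ratios of 1.40 and 1.01 in CD4 and CD8 cells.

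**Figure D4:**
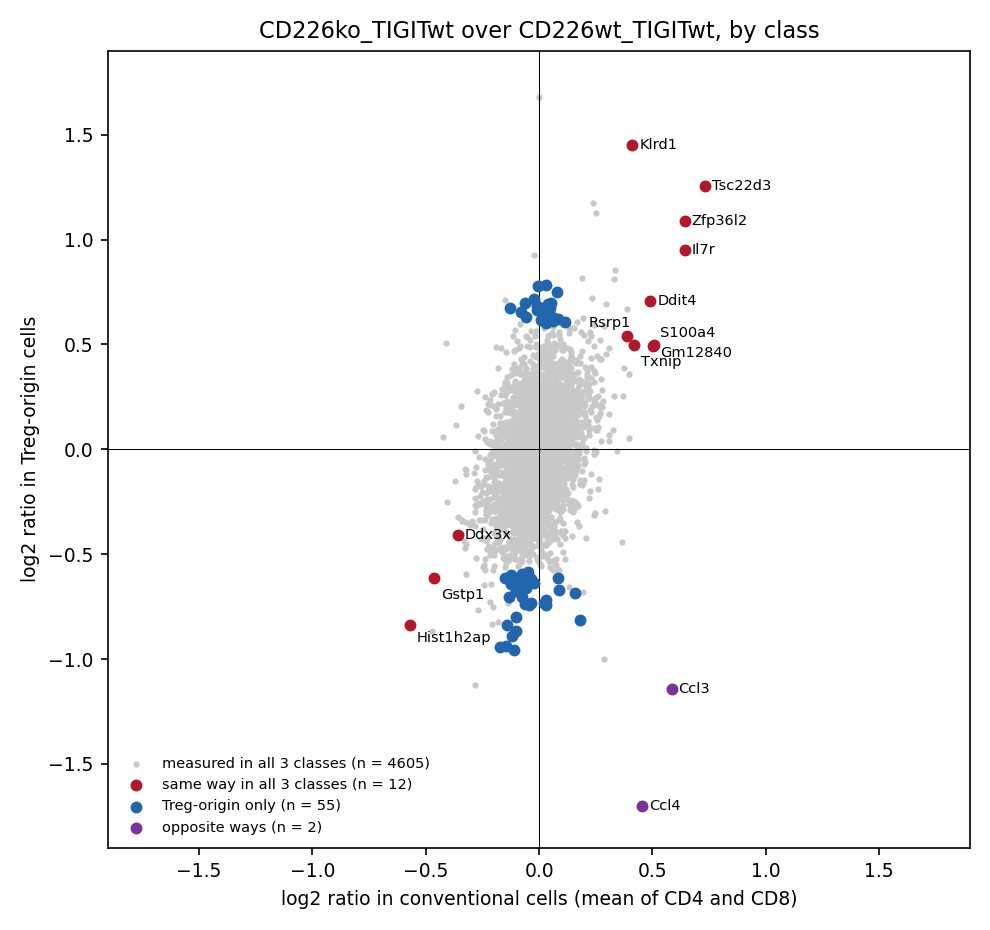
Log2 ratio, CD226ko_TIGITwt over CD226wt_TIGITwt, in Treg-origin cells (vertical axis) against the mean log2 ratio of conventional CD4 and CD8 cells (horizontal axis), 1 point per gene for the 4605 genes measured in all 3 classes. The 12 shared genes (red) lie at the upper right and lower left, the 55 Treg-origin-only genes (blue) above and below the centre, and Ccl3 and Ccl4 (purple) at the lower right, with 2 genes beyond the axis limit of 1.9.

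A further 353 genes were measured in Treg-origin cells and stood under 20 CPM in both conventional classes. Of these, 30 (8.5%) were at least 1.5-fold higher and 18 (5.1%) at least 1.5-fold lower with an interval that leaves out 1. Over all 5137 genes measured in Treg-origin cells these shares were 1.64% and 1.54%, with no interval asked. Some genes passed the floor only through the library where they were higher. Tnfrsf25, Selenop, Itgae, Synj1 and Mbnl2 were under 20 CPM in wild-type Treg-origin cells, and Rapsn, Nfkbid and Slc35d2 in CD226-null ones. For such genes the floor and the direction are not independent. Concentrated genes made up 9 of the 30 and 10 of the 18, among them the neutrophil genes S100a8 and S100a9 of 1 wild-type-library cell and the immunoglobulin genes Igkc and Jchain of the CD226-null library. Tnfrsf25, a costimulatory receptor through which Treg cells expand, was at 15.2 and 41.8 CPM (2.75 [1.81, 4.24]), with ratios of 1.26 and 1.28 in CD4 and CD8 cells. Selenop, a selenium carrier protein, was at 13.01 and 33.8 CPM (2.59 [1.65, 4.17]), and Lgmn, the lysosomal protease legumain, at 38.6 and 75.0 CPM (1.94 [1.47, 2.57]). Lgmn was lower in CD4 and CD8 cells, with ratios of 0.561 [0.456, 0.690] and 0.684 [0.526, 0.887] on at most 9.05 CPM. Itgae, the CD103 integrin that holds cells in epithelia, was at 16.9 and 31.5 CPM (1.86 [1.21, 2.88]) and near 1 CPM in conventional cells. Synj1 and Mbnl2 followed, with ratios of 1.98 and 1.92.

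Of the lower genes, Cyp11a1, the first enzyme of steroid synthesis, was at 63.3 and 28.6 CPM in Treg-origin cells (0.452 [0.321, 0.627]) and at 6.59 and 0.899 CPM in CD4 cells (0.136 [0.0869, 0.206]). Its Treg-origin log2 ratio of -1.12 was -0.12 in cells low in proliferation genes. Ecm1, a secreted matrix protein also made by type 2 helper T cells, was at 105 and 57.8 CPM in Treg-origin cells (0.551 [0.432, 0.697]) and at 8.88 and 4.98 CPM in CD4 cells (0.561). Ecm1 was thus lower by a like ratio in both classes. Rapsn, Nfkbid, Slc35d2 and H2-Ab1 had ratios of 0.433, 0.519, 0.543 and 0.630, and H2-Ab1, an MHC class II gene of B and myeloid cells, held 50% of its CD226-null UMIs in 5 cells.

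The libraries with TIGIT absent gave a second CD226 contrast that shares no library with the first. Among all measured genes the direction was the same in both contrasts for 54.5% in Treg-origin, 56.5% in CD4 and 56.1% in CD8 cells. Of the 9 shared higher genes, 7, 7 and 4 were higher in Treg-origin, CD4 and CD8 cells with TIGIT absent, and of the 3 shared lower genes 3, 3 and 2 were lower. Rsrp1 had ratios of 1.56, 1.61 and 1.61 in the 3 classes there, and S100a4 1.83, 1.51 and 1.37, each at least as far from 1 in Treg-origin and CD4 cells as with TIGIT present. Tsc22d3 stood at 68.8 and 98.6 CPM in Treg-origin cells (1.43 [1.152, 1.79]), with 1.17 and 0.963 in CD4 and CD8 cells. Il7r had ratios of 1.12, 1.03 and 1.17 and Zfp36l2 0.927, 1.12 and 0.911. Ddit4 went the other way, with 0.729, 0.878 and 0.70, and Hist1h2ap stood near 1 at 0.881, 0.932 and 0.954. Whether CD226 loss acts differently with and without TIGIT was not tested, and TIGIT status and lane cannot be told apart.

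The Treg-origin-only genes were not shared between the contrasts beyond the share seen over all genes. With TIGIT absent 12 of the 24 higher genes were higher and 19 of the 31 lower genes lower. The median log2 ratio of the higher genes was 0.67 with TIGIT present and 0.04 with TIGIT absent, and that of the lower genes -0.70 and -0.05. Slamf1, a receptor of T cell adhesion on this list, had 1.56 [1.14, 2.13] and 1.89 in the 2 contrasts. Of the genes low in conventional cells, 17 of 30 and 12 of 18 kept their direction, counts that include 9 and 10 concentrated genes. Among the concentrated lower genes, S100a8 and S100a9 had log2 ratios of -7.39 and -8.25 with TIGIT absent. There too 1 cell held most neutrophil-marker UMIs of the Treg-origin cells with CD226 (3686 of 3700). The 12 of 18 is therefore no measure of agreement beyond such cells. Tnfrsf25 had a ratio of 2.19 and Ecm1 of 0.678 with TIGIT absent, whereas Itgae stood at 0.884, Lgmn at 0.612 and Cyp11a1 at 2.53. Mitosis genes had a Treg-origin median of -0.26 with TIGIT absent (1 of 22 higher), resting and memory genes 0.19 (13 of 16 higher) and interferon-stimulated genes -0.16 (7 of 29 higher). Ribosome biogenesis genes were there at 0.16 (16 of 22 higher), sterol synthesis genes at 0.08 (7 of 11) and mitochondrial transcripts at 0.0061 (7 of 12). Glycolysis genes stood at -0.08 (2 of 13), DNA replication genes at -0.11 (8 of 22) and histones at -0.10 (4 of 11).

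**Figure D5:**
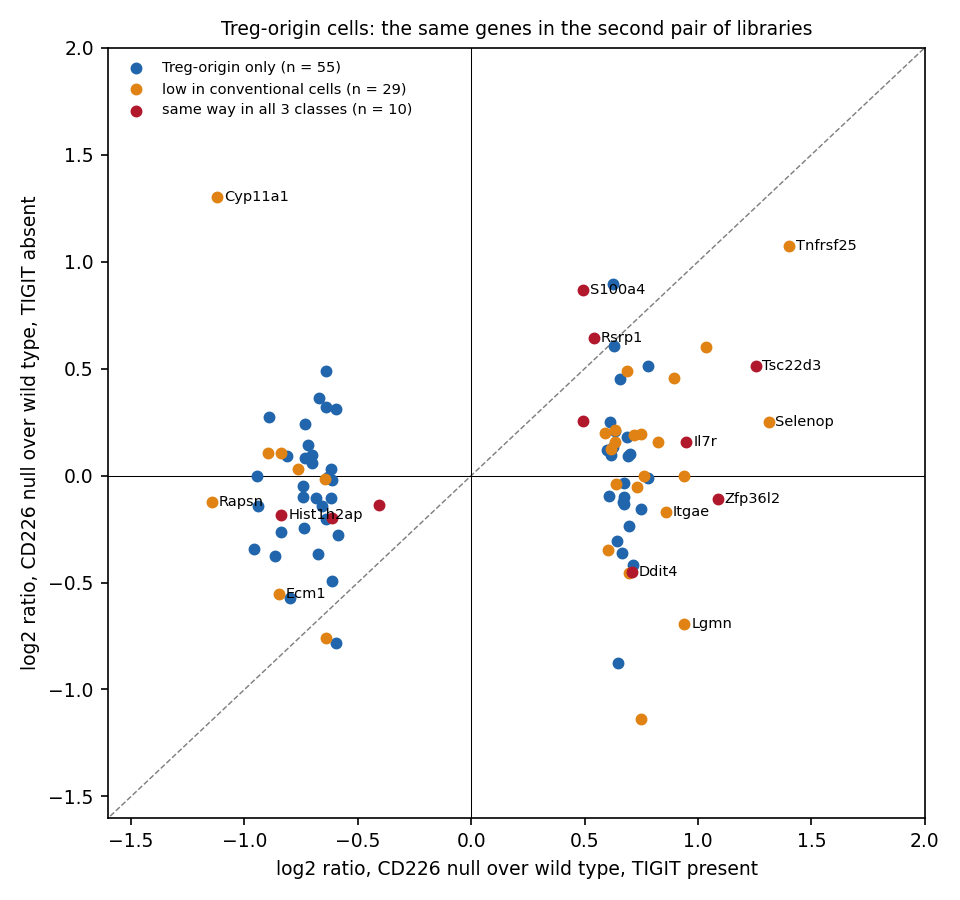
Log2 ratio of CD226 null over wild type in Treg-origin cells with TIGIT absent (vertical axis) against the ratio with TIGIT present (horizontal axis), 1 point per gene. The 55 Treg-origin-only genes (blue), with vertical medians of 0.04 and -0.05, stand beside 29 genes low in conventional cells (orange) and 10 shared genes (red). Shared genes above the dashed line of equal ratios include the higher Rsrp1 and S100a4 and the lower Hist1h2ap and Ddx3x.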

How the data were processed

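Donor T cells were profiled by 10x 3′ v3 single-cell RNA-seq with sequenced antibody tags for CD45.1 and CD45.2. The authors deposited UMI counts for 31053 genes and 2 antibodies per library, and the submitters' processing notes name Cell Ranger 3.1.0 and mm10. Barcodes needed 500 or more detected genes and no more than 10% of UMIs from mitochondrial genes: 7654 of 8597 barcodes (wild type) and 9045 of 9835 (CD226 null) passed. No doublet caller was run. Counts were summed per class and library, scaled to CPM and compared as log2((CPM + 1)/(CPM + 1)), CD226 null over wild type, with exact conditional Poisson intervals of the ratio. UMIs were summed over cells, so intervals hold counting error only.

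Classes, sets and lists were chosen with earlier results of these data known. Named were all shared genes, the 10 largest Treg-origin-only differences and the 6 largest among genes low in conventional cells in each direction, concentrated genes left out, and members of 31 gene lists at least 1.5-fold changed or else extreme in Treg-origin cells. A few other list members were named after their values were seen. Interval coverage was tested on simulated Poisson counts only. These leave out the spread between cells, so the test cannot show how the intervals hold for the real counts. Python 3.11.15, numpy 2.4.6, scipy 1.17.1, pandas 2.3.3 and matplotlib 3.10.9 were used.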

Additional observations from a re-analysis of the deposited data

Results flagged for a closer look

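For the 6 genes listed here the log2 ratio of CD226 null over wild type had opposite signs with TIGIT present and absent in at least 1 class. Each genotype was 1 library. These are not all the genes with opposite signs. In Treg-origin cells, for example, Klrg1 was at 0.86 and -0.43 and Itgae at 0.86 and -0.17. The difference between the contrasts was not tested. Ddit4 was at 0.71 with TIGIT present and -0.45 with TIGIT absent in Treg-origin cells, at 0.48 and -0.19 in conventional CD4 cells and at 0.50 and -0.50 in conventional CD8 cells. Zfp36l2 was at 0.63 and -0.13 in conventional CD8 cells. Lgmn was at 0.94 and -0.70 in Treg-origin cells, and Cyp11a1 at -1.12 and 1.30. Ccl3 stood at -1.14 and 1.21 and Ccl4 at -1.70 and 1.247 in Treg-origin cells, with over 50% of the UMIs of each in 5 cells.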

How the results depend on the processing

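Each alternative changed 1 choice, where the 2 limits of the cell filter (genes and mitochondrial share) and of the antibody ratio were changed together. Of 192 counts by rule, 122 lay within 1.5 times the reported count. A changed floor or fewer cells changes how many genes and UMIs enter, and the cause of the other moves was not tested. Shared higher genes (9) numbered 18 in cells low in proliferation genes, 18 at a floor of 5 CPM and 5 at 50 CPM. Shared lower genes (3) numbered 15 in cells low in proliferation genes, 8 after thinning to 2000 UMIs and 8 at a floor of 5 CPM. Treg-origin-only higher genes (24) numbered 77 with stricter antibody limits, 56 in Treg-origin cells with more Cd4, 39 after thinning, 79 at 5 CPM and 1 at 50 CPM. The lower ones (31) numbered 59 under the stricter cell filter, 50, 88, 61, 83 and 4. Genes with opposite directions numbered 4 (low proliferation) and 2 (5 CPM) in place of 0, and 1 (antibody limits) in place of 2. Genes low in conventional cells that were higher (30) numbered 13 at 50 CPM. Those that were lower (18) numbered 10 in cells with more Cd4, 10 without cells rich in other markers, 8 at low proliferation, 11 after thinning, 10 at 50 CPM and 11 by mean per-cell CPM.

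In Treg-origin cells, genes 25% higher (425) numbered 759 with stricter antibody limits, 763 in cells with more Cd4, 748 at low proliferation, 931 after thinning, 1172 at 5 CPM and 136 at 50 CPM. Genes lower by that factor (462) numbered 722, 796, 956 (thinned), 1247 and 167. Genes 1.5-fold higher (84) numbered 260, 212, 222, 334, 400, 26 and, by mean per-cell CPM, 135. Genes 1.5-fold lower (79) numbered 130 under the stricter cell filter, then 224, 241, 191, 340, 442, 19 and 120. In conventional CD4 cells, genes 25% higher (30) numbered 155 at low proliferation, 100 after thinning, 89 at 5 CPM and 19 at 50 CPM, and lower genes (26) 202, 140, 100 and 13. In conventional CD8 cells higher genes (65) numbered 513, 148, 148 and 26, and lower genes (89) 655, 215, 191, 33 and, with a pseudocount of 5 CPM, 55.

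Of the named genes and lists, 17 values changed sign, and the cause was not tested. List medians less than 0.10 from 0 in the reported setting were not counted, so sign changes of those are left out. With stricter antibody limits, H2-Ab1 was at 0.45 in Treg-origin cells and Ccl4 at -0.37 in CD8 cells. The Treg-origin medians were 0.10 for cytotoxic granule, 0.0366 for DNA replication and -0.055 for survival genes. In cells low in proliferation genes, Hirip3 was at 1.27 and H2-Ab1 at 0.0476 in Treg-origin cells, and Ccl4 at -0.42 in CD8 cells. CD8 medians there were -0.0008 for resting and memory, -0.0157 for immediate early, -0.10 for mitophagy and -0.0608 for SLAM genes. The immediate early CD8 median was -0.0346 after thinning. Cytotoxic granule genes had Treg-origin medians of 0.27 in cells with more Cd4 and 0.0674 by mean per-cell CPM, and a CD4 median of -0.0456 at 50 CPM. TNF receptor genes had a CD4 median of 0.083 at 5 CPM. No paired analysis was possible because each genotype is 1 library.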

Other observations

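Foxp3 was also counted in the wild-type conventional CD8 cells, at 1.57 CPM in the wild-type library and 7.11 CPM in the CD226-null library (ratio 4.52 [3.28, 6.36]), with 39.1% and 12.04% of the UMIs in 5 cells. A Foxp3 UMI was seen in 1.19% and 4.04% of these cells, and in 0.335% and 1.20% after thinning to 2000 UMIs. In conventional CD4 cells of the same libraries Foxp3 was lower in the CD226-null library, at 1.52 against 2.26 CPM. With TIGIT absent, Foxp3 in conventional CD8 cells was at 3.02 CPM with CD226 and 2.63 CPM without it. Ikzf2, which encodes the Treg-associated factor Helios, had a ratio of 1.34 in the same CD8 cells, at 19.4 and 25.96 CPM.

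Il4, a type 2 cytokine gene, was at 44.7 and 61.2 CPM in Treg-origin cells (ratio 1.37), with ratios of 0.609 in conventional CD4 and 0.285 in conventional CD8 cells.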
